A study of Homo sapiens with 4 samples.

Results

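The genes described here are human ZNF genes, named for the zinc finger proteins they encode, that were measurable in the RNA of a breast cancer cell line before immunoprecipitation. Members carry an approved symbol made of ZNF, a number and at most 1 further letter, and averaged at least 2 FPKM (fragments per kilobase of gene, scaled to the size of the library) over the 2 input libraries. They were thus selected on the input values, and the rule itself used no RIP value. The choice of this set was made with earlier results of these data known, so it was not blind to them. The rule kept 227 of 556 ZNF symbols, among 36203 gene identifiers in all. Of the members, 220 are protein-coding in GENCODE 29, 7 are pseudogenes there, and 99 lie on chromosome 19. A search of the coding sequences for the classical finger pattern found at least 1 finger in all protein-coding members but ZNF185, ZNF330 and ZNF839.

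A classical zinc finger is a short loop in which 2 cysteines and 2 histidines hold a zinc ion, and arrays of such fingers read DNA sequence. Many ZNF proteins also carry a KRAB box, which recruits the corepressor TRIM28 and through it the methyltransferase SETDB1 and HP1 proteins, and these proteins are best known for silencing transposable elements. YTHDF3 is a cytoplasmic reader of N6-methyladenosine (m6A), a mark placed on mRNA mostly within a short consensus of which GGACT, in DNA letters, is the best known form. The mark is known to be dense near stop codons and in long internal exons, and ZNF genes typically encode all their fingers in 1 long last exon.

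The immunoprecipitated libraries, called RIP 1 and RIP 2, hold RNA pulled down with a Santa Cruz Biotechnology antibody against YTHDF3, and input 1 and input 2 hold RNA labelled as carrying no antibody. All 4 come from cells in serum-containing DMEM with no treatment in the labels. The line is labelled MDA-MB-231, a triple-negative breast cancer line, while the growth protocol names MDA-MB-231Br, its brain-seeking derivative. The extraction text speaks of embryos and of an m6A antibody, which fits neither the cell label nor the antibody label, so which procedure was followed cannot be told apart. No RIP with a control antibody was analysed here, and separate cultures behind the libraries of a group are not stated in the labels. The p-values then reflect no more than how far these libraries differ among themselves, which may be technical.

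Most marker levels were those of a mesenchymal breast cancer line in both groups. VIM, CD44, EGFR, CAV1 and AXL ranged between 48.6 and 1258 FPKM over the RIP libraries and between 75.3 and 1322 FPKM over the inputs. ESR1 and CDH1 were listed at 0 in all 4 libraries, and PGR and GATA3 were at 0.312 FPKM or less. ERBB2 had 31.1 and 7.45 FPKM in the RIP libraries, against 9.07 and 5.77 FPKM in the inputs, and the epithelial marker EPCAM had 1.10 and 0.187 FPKM in the RIP libraries, against 11.98 and 3.88 FPKM in the inputs. Depth is not stated with the values, so no counting interval is given, and an exact 0 is described as listed at 0. The summed FPKM of protein-coding genes was 279151 and 286220 in RIP, against 323064 and 319567 in input. Over all genes the sum was 301226 and 301483 in RIP, against 700141 and 690869 in input.

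ZNF transcripts took a larger share of the RIP libraries than of the inputs. The FPKM sum of the members, pseudogenes included, equalled 2.23% of the protein-coding sum in RIP 1 and 1.66% in RIP 2. In input 1 and input 2 it equalled 0.425% and 0.423%. The median member stood at 19.8 and 12.8 FPKM in the RIP libraries, against 3.95 and 3.96 FPKM in the inputs. Levels of 10 FPKM or more were reached by 180 and 142 members in RIP, against 32 and 30 members in input. Only RIP 2 listed any member at 0, and there it listed 2, ZNF789 and ZNF428.

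Each gene was compared between RIP and input on the log2(FPKM + 1) scale with limma, over all 12848 genes that reached 1 FPKM in at least 2 libraries, and was called at a Benjamini-Hochberg adjusted p below 0.05. At that threshold 120 of the 227 members were higher in RIP and 3 were lower, where 15.4% and 24.3% of all genes tested were called higher and lower. Among the 10827 genes tested that also averaged 2 FPKM or more in input, the shares were 12.5% higher and 27.8% lower. Because the rule that chose the members used the input level, which is also one side of this comparison, these counts describe the set and support nothing further. A floor on input acts against genes that are higher in RIP. The median log2 fold change of the members was 1.69, beside -0.10 over all genes tested and -0.43 over those with the same input floor. It stayed positive under every scaling tried, and relative to the median of all genes it was 1.79 as deposited, 1.82 after quantile normalization and 1.96 on the TPM scale, where the median of all genes itself stood at 0.96. With either input library left out, limma called none of the 12848 genes in either direction, and so no member (for the members, 35 higher and 3 lower at an unadjusted p below 0.05 without input 1, and 43 and 1 without input 2), while the median log2 fold change was 1.73 without input 1 and 1.72 without input 2. Leaving out RIP 2 gave a median log2 fold change of 1.98 for the members and -0.03 for all genes. Leaving out RIP 1 gave 1.38 and -0.20. In these fits the RIP group is 1 library, which is assumed to vary like the inputs.

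**Figure D1:**
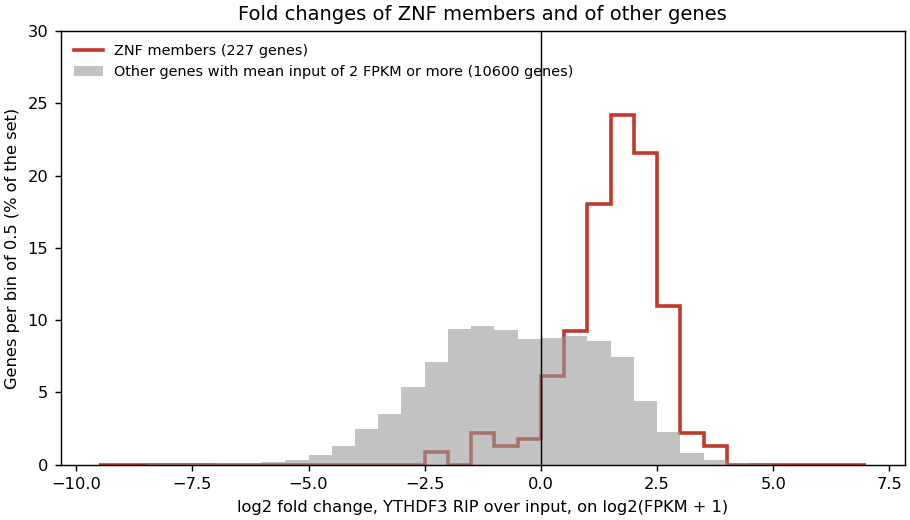
The x axis is the log2 fold change of RIP over input on log2(FPKM + 1), and the y axis is the percent of genes per bin of 0.5, for the 227 ZNF members (red line) and the 10600 other genes with the same input floor (grey). The members pile up to the right of 0, around their median of 1.69, and the other genes spread widely on both sides of 0.

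The individual values followed the same direction in most members. Both RIP values lay above both inputs in 191 members and below both in 8, where 35.7% and 40.1% of all genes tested, and 30.5% and 45.2% of those with the input floor, did so. A positive log2 fold change was found for 213 members, at least 1 for 178, at least 2 for 82 and at least 3 for 8. Of the 104 members that were not called, 71 still had both RIP values above both inputs, 28 overlapped and 5 lay below. All 227 members passed the filter on low values, and 221 of them reached 1 FPKM in both RIP libraries. The nearest genes on either side of the input floor had the following values. Just inside it, ZNF142, ZNF845 and ZNF205 averaged 2.05, 2.002 and 2.001 FPKM in the inputs, with log2 fold changes of 2.78, 2.62 and 1.12. Just outside it, ZNF20, ZNF780A and ZNF318 averaged 1.99, 1.98 and 1.92 FPKM in the inputs, with log2 fold changes of 1.79, 1.72 and 2.34.

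The 10 members with the largest fold changes among those called were led by ZNF496, a SCAN domain protein whose mouse counterpart binds the histone methyltransferase NSD1. ZNF496 (ENSG00000162714, chromosome 1, 247297412 to 247331846 on GRCh38) had 139 and 129 FPKM in the RIP libraries, against 9.81 and 7.54 FPKM in the inputs. Its RIP values were close together and far above both inputs, with a log2 fold change of 3.81 (SE 0.45, limma adjusted p = 0.00873). ZNF436, a KRAB protein on chromosome 1, had 22.4 and 96.9 FPKM in the RIP libraries, against 3.40 and 2.71 FPKM in the inputs, so RIP 2 was far above RIP 1 while both stood above input (log2 fold change 3.57, SE 0.74, limma adjusted p = 0.0162). ZNF266 (ENSG00000174652, chromosome 19, 9412461 to 9435578) is a KRAB protein with 12 fingers. It had 82.7 and 63.004 FPKM in the RIP libraries, against 5.97 and 4.95 FPKM in the inputs, and led the members outside chromosome 1 (log2 fold change 3.51, SE 0.46, limma adjusted p = 0.00873).

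ZNF124, a KRAB protein of 8 fingers, had 68.0 and 82.4 FPKM in the RIP libraries, against 5.52 and 7.74 FPKM in the inputs. ZNF687, which joins ZNF592 and ZMYND8 in a chromatin complex and is mutated in a form of Paget disease of bone, had 49.6 and 47.7 FPKM in the RIP libraries, against 5.50 and 3.80 FPKM in the inputs. The groups were far apart in both genes, with log2 fold changes of 3.33 and 3.15. ZNF559 had 49.8 and 19.8 FPKM in the RIP libraries, against 4.16 and 1.71 FPKM in the inputs, and ZNF614 had 56.4 and 29.96 FPKM in the RIP libraries, against 3.20 and 6.14 FPKM in the inputs, both on chromosome 19. ZNF672, ZNF670 and ZNF669 lie with ZNF124 and ZNF496 near the end of the long arm of chromosome 1, and their log2 fold changes were 3.10, 3.01 and 2.97. ZNF559 and ZNF670 share exons with the annotated readthrough genes ZNF559-ZNF177 and ZNF670-ZNF695 on the same strand, and how reads were split there is not given in the sources used here.

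**Figure D2:**
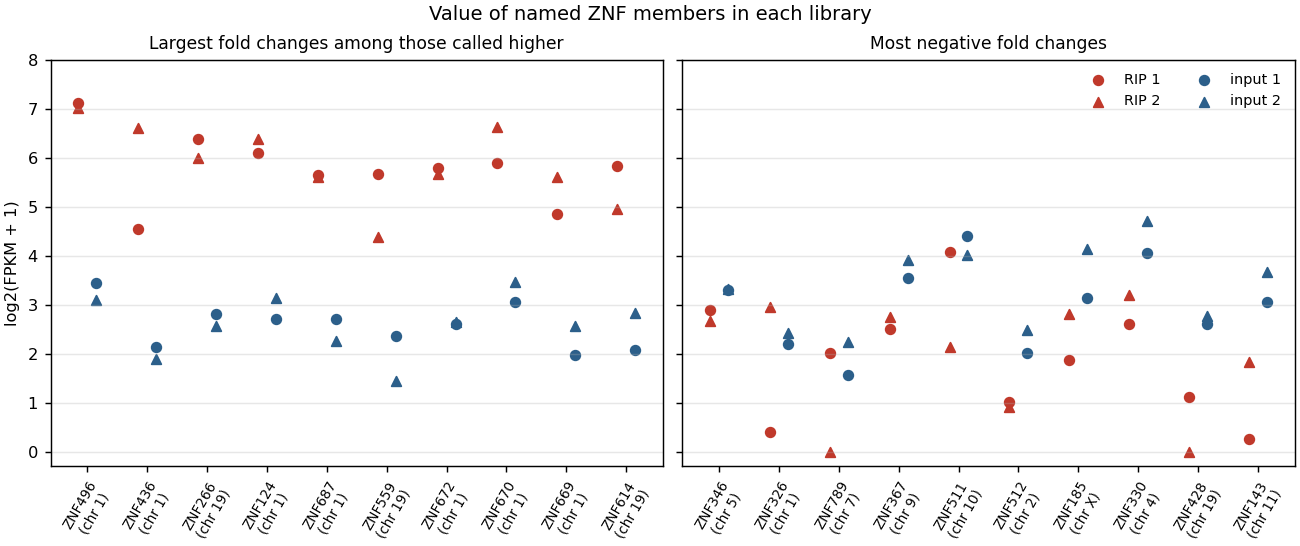
The y axis is log2(FPKM + 1) in each library for the 10 members with the largest fold changes among those called higher (left) and the 10 with the most negative fold changes (right), with RIP in red left of input in blue, circles for library 1 and triangles for library 2. On the left all RIP points stand above all input points, from 3.81 for ZNF496 to 2.95 for ZNF614 in log2 fold change, and on the right several genes overlap.

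Of those 10 genes, 7 are on chromosome 1, and chromosome 1 was raised in RIP 2. The median member on chromosome 1 was 1.29 log2 units higher in RIP 2 than in RIP 1, and on chromosome 10 it was 0.91 higher, while on chromosome 19 it was 0.70 lower. On chromosome 1, 10 of 13 members were called higher with a median log2 fold change of 2.97, on chromosome 10 there were 5 of 8 with 2.23, and on chromosome 19 there were 57 of 99 with 1.78. Among all genes with the input floor, 238 of 1127 on chromosome 1, 88 of 455 on chromosome 10 and 108 of 647 on chromosome 19 were called higher. The count outside chromosomes 1 and 10 was 1027 of 9245. The part of this chromosome pattern in the results was not tested. Outside chromosomes 1 and 10, 105 of 206 members were called higher and 3 lower, at a median log2 fold change of 1.66. When all genes outside those chromosomes were fitted and adjusted alone, 120 members were called higher and 4 lower. In that fit 1814 of all 10937 genes tested (16.6%) were called higher and 3119 lower.

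The RIP libraries varied more than the inputs. The median SD of a member on the log2 scale was 0.51 between the RIP libraries and 0.24 between the inputs (n = 2 each). RIP 1 was the higher of the pair in 182 members. Taken one by one, RIP 1 was above the mean of the inputs in 213 members and RIP 2 in 204, and both were at least 1 log2 unit above it in 146. As a description across the 227 genes, which share library and depth, the log2 values of the RIP libraries correlated at r = 0.79 and those of the inputs at r = 0.84.

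**Figure D3:**
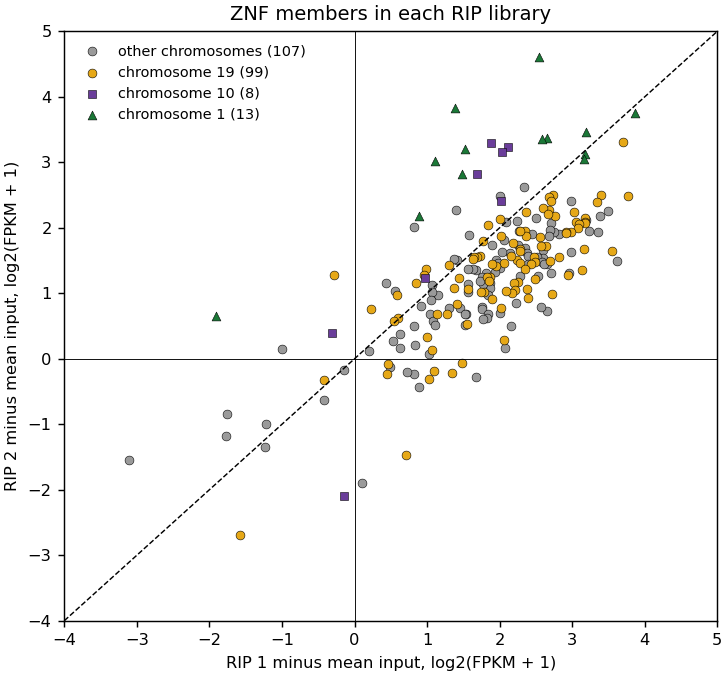
Each point is a ZNF member, with its log2(FPKM + 1) in RIP 1 minus the mean of the inputs on the x axis and the same for RIP 2 on the y axis, and the dashed line marks equal values. Most points lie in the upper right part below the dashed line, and most of those on chromosomes 1 and 10 lie above it, where the median member of chromosome 1 was 1.29 log2 units higher in RIP 2.

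By level, the highest members in RIP were mostly other genes than those with the largest fold changes. ZNF639, studied in squamous tumours under the name ZASC1, had 261 and 136 FPKM in the RIP libraries, against 56.9 and 42.2 FPKM in the inputs, the highest member in RIP 1 and in both inputs. ZNF644, a partner of the G9a and GLP histone methyltransferases, led RIP 2 with 252 FPKM and had 77.8 FPKM in RIP 1, against 24.8 and 28.03 FPKM in the inputs. Both were called higher, with log2 fold changes of 1.92 (SE 0.55, limma adjusted p = 0.0357) and 2.37 (SE 0.65, limma adjusted p = 0.0327). ZNF22 had 82.3 and 220.0 FPKM in the RIP libraries, against 23.0 and 20.3 FPKM in the inputs. ZNF644 lies on chromosome 1 and ZNF22 on chromosome 10, where the median member was higher in RIP 2 than in RIP 1. ZNF496 completed the called genes among the 5 highest in RIP. The fifth, ZNF121, had 125 and 78.7 FPKM in the RIP libraries, against 42.01 and 27.5 FPKM in the inputs, and narrowly missed the threshold (log2 fold change 1.52, limma adjusted p = 0.0548). ZNF664 and ZNF207 completed the 5 highest in input, and neither was called. Across members the log2 fold change had almost no relation to mean input (Spearman rho -0.03 over 227 genes), while it had one of -0.40 over the 9360 protein-coding genes with the floor.

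A KRAB box was found in 127 members and not in 93 of the protein-coding ones. By limma, 76 of the KRAB members were called higher and 0 lower (97 and 0 at an unadjusted p below 0.05), and their median log2 fold change was 1.81, and none was lower at any alternative setting except 1 without RIP 1. Of the members without the box 41 were called higher and 3 lower, with a median of 1.52. The difference between these classes was not tested. On chromosome 19, 48 of 80 KRAB members and 7 of 16 others were called higher. Elsewhere the counts were 28 of 47 and 34 of 77. Finger number, counted over all spacings of the pattern, differed too, with a median of 12 fingers in members with the box and 7 without. Members with 5 or more fingers of the usual spacing were also split by GGACT at a finger position, both described below. Without GGACT there, 53 of 98 with the box were called higher, and with or without the box 77 of 138. For members with GGACT there, the counts were 20 of 25 and 23 of 29. The second count of each pair includes the members with the box, so these counts do not compare members with and without it. In the 7 pseudogenes all RIP values lay above the inputs, and ZNF788, ZNF702P and ZNF252P were called higher.

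The partners through which KRAB proteins act were called in shares near those of all genes. Of 24 genes measured in this machinery 3 were called higher and 6 lower, where 15.4% and 24.3% of all genes tested were. Their median log2 fold change was 0.08. No test set the partners against the members. SETDB1, the histone methyltransferase of the complex, had 15.5 and 87.0 FPKM in the RIP libraries, against 4.23 and 6.48 FPKM in the inputs, and it lies on chromosome 1, where RIP 2 was raised. Its stabilising partner ATF7IP had 41.8 and 20.99 FPKM in the RIP libraries, against 8.02 and 7.73 FPKM in the inputs, and the HUSH-associated ATPase MORC2 had 17.2 and 18.0 FPKM in the RIP libraries, against 1.11 and 1.94 FPKM in the inputs. Both stood above input in each RIP library, by 1.79 and 2.90 on the log2 scale. The HP1 genes went the other way. CBX3 had 6.002 and 4.69 FPKM in the RIP libraries, against 68.6 and 97.5 FPKM in the inputs. CBX1 had 6.29 and 4.58 FPKM in the RIP libraries, against 31.9 and 36.1 FPKM in the inputs, and CBX5 had 2.41 and 6.36 FPKM in the RIP libraries, against 22.9 and 19.4 FPKM in the inputs. HDAC2, PPHLN1 (a HUSH subunit) and RBBP7 were also called lower, with log2 fold changes of -1.86, -2.06 and -2.57. On the TPM scale 6 of the 24 were called higher and 1 lower, and the sign of the median depended on the RIP library kept, with 5 higher, 8 lower and a median of -0.63 without RIP 2, and 6 higher, 6 lower and a median of 0.47 without RIP 1. TRIM28 itself had 54.2 and 97.6 FPKM in the RIP libraries, against 58.7 and 101.4 FPKM in the inputs, so the groups overlapped.

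Among the members listed as chromatin and transcription cofactors 13 of 22 were called higher and 1 lower, at a median log2 fold change of 1.85. These values are near those of all members, 120 of 227 and 3 at a median of 1.69. ZNF217, a breast cancer oncogene on 20q whose product works with the demethylase LSD1 and CoREST, had 55.5 and 44.4 FPKM in the RIP libraries, against 9.45 and 12.2 FPKM in the inputs. Its groups were well apart (log2 fold change 2.11, SE 0.46, limma adjusted p = 0.0179). ZNF592 and ZNF532, relatives of ZNF687 from the same complexes, had log2 fold changes of 2.13 and 2.59. ZNF592 had 40.3 and 12.1 FPKM in the RIP libraries, against 4.70 and 3.93 FPKM in the inputs, and ZNF532 had 56.2 and 22.4 FPKM in the RIP libraries, against 5.92 and 4.37 FPKM in the inputs. ZNF281, a repressor linked to stem cell and mesenchymal programmes, had 28.5 and 159 FPKM in the RIP libraries, against 8.66 and 12.2 FPKM in the inputs, and the high RIP 2 value again belongs to chromosome 1.

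ZNF521, a cofactor of early B-cell factors, had 60.6 and 21.95 FPKM in the RIP libraries, against 5.12 and 4.94 FPKM in the inputs, and ZNF131 had 64.9 and 90.7 FPKM in the RIP libraries, against 12.8 and 18.5 FPKM in the inputs. ZNF827, known for recruiting NuRD to telomeres, was tight in both groups with 15.02 and 13.5 FPKM in the RIP libraries, against 2.50 and 2.26 FPKM in the inputs. The other called members of the list, beside ZNF639, ZNF644 and ZNF687, were ZNF462, ZNF518B and ZNF384, with log2 fold changes of 1.93, 1.77 and 1.47. Not called were ZNF148 (1.69), ZNF292 (1.56), ZNF395 (1.26), ZNF451 (1.10), ZNF410 (1.04), ZNF24 (0.79), ZNF76 (0.55) and ZNF335 (0.19). Of these ZNF148, which binds GC-rich promoters, had 78.2 and 19.7 FPKM in the RIP libraries, against 9.20 and 14.4 FPKM in the inputs, all RIP above all input but with RIP libraries far apart.

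Known repressors of transposable elements and imprinted loci gave 4 called higher of 8 members and 0 lower by limma (5 and 0 at an unadjusted p below 0.05), at a median log2 fold change of 1.51. All members had 120 of 227 called higher at a median of 1.69, so this list too is near the whole set. ZNF202 had 68.8 and 28.7 FPKM in the RIP libraries, against 6.25 and 4.31 FPKM in the inputs. ZNF274, which brings SETDB1 to the ends of ZNF genes themselves, had 69.8 and 28.4 FPKM in the RIP libraries, against 11.1 and 7.29 FPKM in the inputs (log2 fold change 2.19, SE 0.58, limma adjusted p = 0.0303). ZNF765 and ZNF808 were the other called genes, at 1.97 and 1.68. ZNF91, the repressor of SVA elements, had 1.40 and 6.11 FPKM in the RIP libraries, against 0.770 and 3.81 FPKM in the inputs. Its libraries split by number rather than by group, and the groups overlapped. ZNF417, ZNF33A and ZNF587 were not called, at log2 fold changes of 1.34, 1.10 and 0.56, and 37.7%, 6.80% and 19.6% of the 50-base windows of their transcripts also occur in another ZNF transcript.

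Members listed as RNA, ribosome and spindle proteins fell on both sides of 0, with log2 fold changes from -1.48 to 1.54. Of these 13 members 0 were called in either direction by limma (at an unadjusted p below 0.05, 1 higher and 1 lower), their median log2 fold change was 0.16, and under the alternatives the calls ran from 0 to 4 higher, reached on the TPM scale, and from 0 to 3 lower, reached without RIP 2. ZNF207, a spindle assembly protein known as BuGZ, had 13.8 and 31.8 FPKM in the RIP libraries, against 21.05 and 38.5 FPKM in the inputs. ZNF598, the ubiquitin ligase that senses collided ribosomes, had 19.8 and 7.33 FPKM in the RIP libraries, against 7.54 and 13.7 FPKM in the inputs. ZNF622, whose yeast counterpart Rei1 matures the large ribosomal subunit, had 11.0 and 18.8 FPKM in the RIP libraries, against 3.62 and 16.2 FPKM in the inputs. All of these overlapped between groups. ZNF346, which binds double-stranded RNA, had 6.44 and 5.39 FPKM in the RIP libraries, against 8.82 and 9.06 FPKM in the inputs, and ZNF330, a nucleolar protein, had 5.10 and 8.17 FPKM in the RIP libraries, against 15.6 and 25.1 FPKM in the inputs. RIP lay below input in both, without a call (limma adjusted p = 0.394 and 0.0618). ZNF593, ZNF106 and ZNF638 had log2 fold changes of 1.54, 1.27 and 1.06 with all RIP values above input, and ZNF830 had 0.83. ZNF277 (0.16), ZNF706 (-0.16), ZNF326 (-0.63) and ZNF185 (-1.30) completed the list, although ZNF185 is a LIM-domain protein of the actin cytoskeleton and belongs to none of its classes, and the sign of ZNF706 turned to 0.0147 when protein-coding sums were made equal.

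The 3 members called lower were ZNF143, ZNF428 and ZNF512. ZNF143, an activator that sits at promoters and at the bases of chromatin loops, is on chromosome 11 (9460319 to 9528524). Its values were 0.195 and 2.54 FPKM in the RIP libraries, against 7.35 and 11.7 FPKM in the inputs, with a log2 fold change of -2.32 (SE 0.64, limma adjusted p = 0.0334). Its near relative ZNF76 had 21.8 and 10.8 FPKM in the RIP libraries, against 13.3 and 7.80 FPKM in the inputs, with overlapping groups. ZNF428 had 1.15 FPKM in RIP 1 and was listed at 0 in RIP 2, against 5.06 and 5.86 FPKM in the inputs. ZNF512 had 1.01 and 0.870 FPKM in the RIP libraries, against 3.04 and 4.58 FPKM in the inputs (log2 fold change -1.29, limma adjusted p = 0.0443). The input floor favours calls of this direction, and these were lost with a pseudocount of 0.1, with no filter on low values and on the TPM scale, where 0 members were called lower and the values were -1.86, -2.01 and -0.63 for ZNF143, ZNF428 and ZNF512. ZNF367, ZNF511, ZNF789 and ZNF326 filled the negative end without a call, and ZNF789 had 3.02 FPKM in RIP 1 and was listed at 0 in RIP 2, against 1.97 and 3.71 FPKM in the inputs.

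Features of the transcripts that the rule did not use were then compared, as descriptions without a test, on the transcript with the longest complete coding sequence of each gene in GENCODE 29. Over all protein-coding genes with the input floor, long transcripts were called higher more often, from 151 of 2513 under 2 kb to 275 of 1407 at 6 kb or more, with medians from -1.501 to 0.69. Above 2 kb ZNF members hardly followed transcript length, with 5 of 18 called under 2 kb, 36 of 63 at 2 to 3 kb, 25 of 42 at 3 to 4 kb, 37 of 66 at 4 to 6 kb and 14 of 31 at 6 kb or more. Their Spearman rho with transcript length was 0.06 over 220 genes, beside 0.39 over the 9360 protein-coding genes. In each length class their median, 1.38 to 1.90, lay above that of the background. GC content did not order them either, with rho 0.11. The number of fingers, counted over all spacings of the pattern, went with the fold change. Of members with 1 to 4 fingers 7 of 33 were called higher (median log2 fold change 0.98), and with 5 to 9 fingers 37 of 64. With 10 to 14 fingers it was 40 of 74, and with 15 or more 32 of 46 (median 1.95). Spearman rho with finger number was 0.22 over 220 members and 0.20 over the 9360 protein-coding genes, whose median finger number was 0. The listed RNA, ribosome and spindle proteins above mostly carry few fingers.

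GGACT was counted on the sense strand of each transcript. Of members with under 0.5 copies per kb 21 of 57 were called higher, with 0.5 to 1 copies 44 of 82, with 1 to 1.5 copies 32 of 52, and with more than 1.5 copies 20 of 29. Their median log2 fold changes were 1.37, 1.71, 1.87 and 2.11. In protein-coding genes with the input floor the same classes had medians of -0.83, -0.05, 0.13 and -0.05, and 199 of 2080, 424 of 3133, 381 of 2243 and 300 of 1904 were called higher. Spearman rho between fold change and copies per kb was 0.25 over 220 members and 0.13 over 9360 genes. Around the stop codon the members were not rich in the motif: within 250 bases on each side it occurred in 31.5% of 197 members with a full window, against 43.9% of 7731 protein-coding genes with the input floor. The share was 33.6% in members called higher and 28.7% in those not called.

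**Figure D4:**
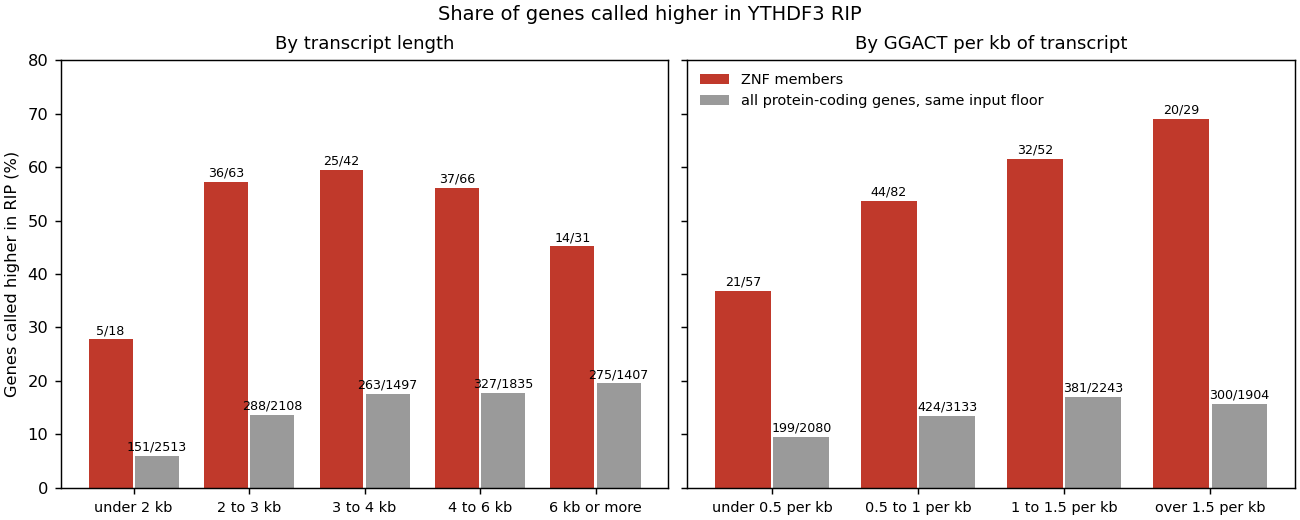
Bars show the percent of genes called higher in RIP by class of transcript length (left) and of GGACT copies per kb of transcript (right), for ZNF members (red) and all protein-coding genes with the same input floor (grey), with called over tested genes above each bar. ZNF bars are the taller of each pair, from 5/18 to 25/42 by length, and they step up from 21/57 to 20/29 with GGACT copies.

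Part of the GGACT copies sit inside the finger repeats. The coding sequences of the 220 members hold 2060 fingers of the usual spacing, 63 bases each, and 402 copies of GGACT. Fingers of other spacings are left out here. Of the copies, 92 lie in those fingers and 56 directly before the codon of the second histidine. This position was picked after printing sequences of the leading genes. GGACT is not the usual sequence there: it occurs in 2.72% of fingers, the commonest 5 bases being GAATT with 16.3%. The following finger and linker sequences come from GENCODE 29 transcripts on GRCh38 and are printed in the sense direction from the first cysteine codon, with GGACT in capitals. The first 3 are from leading genes at the end of chromosome 1, ZNF124 (chr1:247156665-247156748, minus strand), ZNF670 (chr1:247037689-247037772, minus strand) and ZNF669 (chr1:247100764-247100847, minus strand). The next are from chromosome 19 members described below, ZNF627 (chr19:11617176-11617259, plus strand), ZNF439 (chr19:11868219-11868302, plus strand) and ZNF700 (chr19:11949282-11949365, plus strand). ZNF266 (chr19:9414202-9414285, minus strand) and ZNF91 (chr19:23362094-23362177, minus strand) have none and stand for the contrast.
ZNF124: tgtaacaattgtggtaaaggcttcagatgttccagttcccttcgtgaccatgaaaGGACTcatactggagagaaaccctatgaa
ZNF670: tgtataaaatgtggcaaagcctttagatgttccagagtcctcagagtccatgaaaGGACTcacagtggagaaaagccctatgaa
ZNF669: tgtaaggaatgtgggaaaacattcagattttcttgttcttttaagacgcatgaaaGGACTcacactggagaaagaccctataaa
ZNF627: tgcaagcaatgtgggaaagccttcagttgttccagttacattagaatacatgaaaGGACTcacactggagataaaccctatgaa
ZNF439: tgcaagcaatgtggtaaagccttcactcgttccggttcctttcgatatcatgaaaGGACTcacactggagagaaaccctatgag
ZNF700: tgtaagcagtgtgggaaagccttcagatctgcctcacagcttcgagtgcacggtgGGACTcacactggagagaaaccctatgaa
ZNF266: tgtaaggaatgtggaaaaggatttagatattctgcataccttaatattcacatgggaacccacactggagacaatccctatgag
ZNF91: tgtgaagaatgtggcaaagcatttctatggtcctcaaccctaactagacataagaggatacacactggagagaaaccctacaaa

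Members with at least 1 such finger numbered 31, of which 24 were called higher and 0 lower by limma (26 and 0 at an unadjusted p below 0.05), at a median log2 fold change of 2.18. Of the 189 with none, 93 were called higher and 3 lower, with a median of 1.64. Among members with 5 or more fingers of the usual spacing the counts were 23 of 29 and 77 of 138. For those outside chromosomes 1 and 10 they were 20 of 25 and 70 of 129. These classes were cut on the same genes that drew attention to the position, so they are a description of it only. Of the 10 leading members 3 have the site and 7, ZNF266 among them, have none.

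**Figure D5:**
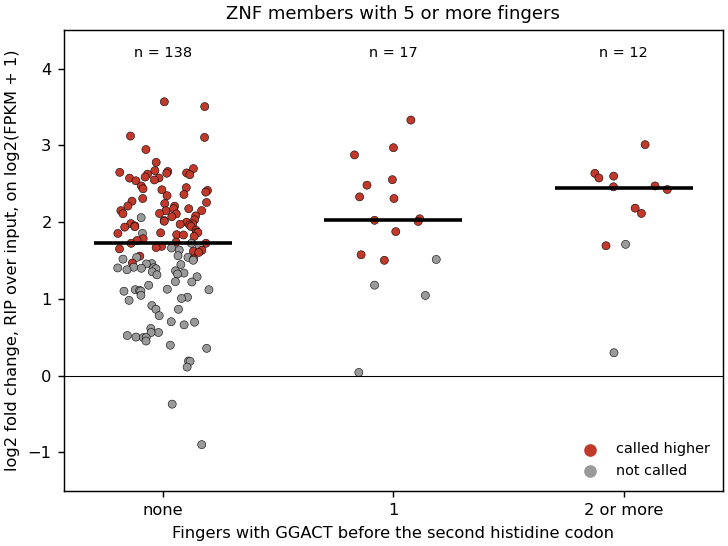
The y axis is the log2 fold change of RIP over input for members with 5 or more fingers of the usual spacing. The x axis is the number of those fingers with GGACT before the second histidine codon. Black lines are medians and red points are members called higher, 77 of 138 with none and 23 of 29 with 1 or more.

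Along chromosome 19 the site was concentrated in 1 gene cluster. In bins of 5 Mb, the 11 protein-coding members from 10 to 15 Mb (11559374 to 14733746) all had it, holding 27 of the 56 sites, and 9 of them were called higher with a median log2 fold change of 2.46. The 7 protein-coding members from 20 to 25 Mb (20167228 to 23687220), the cluster of ZNF91, had 0 sites, and 2 of them were called higher with a median of 0.91. The other 7 bins with members had medians from 1.56 to 2.03, and these 2 bins were singled out after all 9 were seen. Other bins paired sites and calls differently: from 50 to 55 Mb 16 of 19 members were called higher with 1 site in 282 fingers, and from 30 to 35 Mb 3 of 4 were called higher with 0 sites. ZNF700, with 7 sites in 17 fingers, had 32.1 and 15.9 FPKM in the RIP libraries, against 4.48 and 2.54 FPKM in the inputs. ZNF627 had 43.3 and 19.8 FPKM in the RIP libraries, against 3.21 and 4.67 FPKM in the inputs, and ZNF439 had 39.0 and 19.5 FPKM in the RIP libraries, against 4.35 and 3.31 FPKM in the inputs. In all of these RIP stood clear of input, with log2 fold changes of 2.42, 2.64 and 2.57. From 20 to 25 Mb, ZNF626 had 3.36 and 1.71 FPKM in the RIP libraries, against 1.57 and 2.94 FPKM in the inputs, and ZNF85 had 2.60 and 4.18 FPKM in the RIP libraries, against 1.36 and 2.99 FPKM in the inputs, both with overlapping groups. ZNF675 had 13.9 and 16.2 FPKM in the RIP libraries, against 2.85 and 3.50 FPKM in the inputs, and was called higher. Genes in a cluster share sequence, and the windows shared with another ZNF transcript reached 5.83% in the first cluster and 5.49% in the second.

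ZNF genes below the input floor, which the rule left out, ran the same way. Of the 329 such genes 65 were listed at 0 in all libraries and 193 could be tested, of which 99 were called higher and 0 lower by limma (138 and 0 at an unadjusted p below 0.05), at a median log2 fold change of 1.42. A gene of low input passes the filter mainly through its RIP values, so this count is not read as support. Other families of DNA-binding factors with the input floor were also on the high side, 12 of 27 ZBTB, 6 of 9 ZSCAN, 7 of 12 ZFP and 5 of 13 KLF genes being called higher, with 0 lower. For 21 genes of the FOX, SOX, HOX and GATA families, whose proteins other than the GATA factors have no zinc fingers, the counts were 12 higher and 0 lower and the median log2 fold change was 1.75, close to the 1.69 of the ZNF members. The shift is thus not shown to be particular to ZNF genes, and no test of a difference between families was run.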

How the data were processed

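RIP-seq values of 2 YTHDF3 RIP and 2 input libraries were analysed. The authors deposited FPKM values per gene. The unit was inferred from the values, because no header or label names it. Alignment with HISAT2 to GRCh38 (hg38) is named in the submitters' processing notes. Poly(A) RNA and a stranded kit are given per the labels' protocols. The sources used here do not give the counter, the annotation, any filter or whether strand was used. FPKM values are relative to each library, so fold changes depend on scaling.

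Of 36217 rows, 14 with repeated identifiers were dropped, and 36125 of 36203 identifiers were found in GENCODE 29. The 12848 genes that reached 1 FPKM in 2 or more of the 4 libraries were fitted with limma 3.58.1 in R 4.3.3 on log2(FPKM + 1), RIP against input, with empirical Bayes and a mean-variance trend. The tests were two-sided with Benjamini-Hochberg adjustment over all genes and a threshold of 0.05. Such folds understate changes of low genes. Depth is unknown, and no reads were recovered.

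Fingers were found with a sequence pattern. Finger numbers count all its spacings, and classes by the finger position of GGACT use only fingers of the usual spacing. KRAB boxes were found with a HMMER 3.4 profile (E-value 1e-05). It replaced a pattern which missed known KRAB genes, before fold changes were read. Replicates are numbered in accession order, and numbers match between groups by title suffix.

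The members and lists were chosen with earlier results of these data known. Genes named are the 10 largest called increases with groups apart, the 10 most negative, all members of 3 functional lists, called KRAB partners, the 5 highest in RIP and in input, and the 3 on each side of the floor. TRIM28, ZNF85, ZNF626, ZNF627, ZNF675, ZNF439, ZNF700, ZNF839 and the pseudogenes were named after their values were seen. Feature splits examined were KRAB box, transcript length, GC content, GGACT copies, finger number, input level, chromosome, bins of chromosome 19 and the finger position of GGACT. Alternatives were other pseudocounts, filters, scalings and input floors, a replicate block, each library left out, chromosomes 1 and 10 left out, no trend, and members without shared sequence.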

Additional observations from a re-analysis of the deposited data

How the results depend on the processing

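The median log2 fold change of the members was positive under all 17 alternatives, and its range was 1.38 to 1.98 except on the TPM scale, where it was 2.92 with 189 members called higher and 0 lower (limma, 0 lower also at an unadjusted p below 0.05), and 35.6% of all genes were called higher. The count of members called higher was 63 with no filter on low values, where 3.88% of all genes were, 42 of 84 with an input floor of 5 FPKM, and between 0 and 170 with 1 library left out. The lowest of these came without either input and the highest without RIP 2. Without members that overlap exons of another gene or share over 10% of their 50-base windows, an alternative chosen after seeing the data, it was 65 of 109, with 0 lower. No share of all genes is given for that set. For the floor of 5 FPKM, 17.0% of all genes tested with a mean input of 5 to 10 FPKM were called higher in the main fit. Of those with 10 FPKM or more it was 7.77%. The count of members called lower was 0 with a pseudocount of 0.1, with no filter and with 1 FPKM required in all 4 libraries (limma, 4, 5 and 2 at an unadjusted p below 0.05), 1 after quantile normalization, and between 0 and 6 with 1 library left out. All 120 members called higher were also called with quantile normalization, equal protein-coding sums and the TPM scale, settings in which more genes were called higher overall. Fits without a RIP library take their spread from the inputs alone, which vary less, and are no sign of stability. The cause of these moves was not tested, except that smaller sets of members give smaller counts.

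The title suffix joins 1 RIP and 1 input library, only 2 pairs exist and nothing says what it marks. Their deviations from the group means correlated at 0.21 over all genes tested. With the suffix as a replicate block 127 members were called higher and 4 lower. In that fit 2477 of all 12848 genes tested (19.3%) were called higher and 3466 lower.

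Signs were checked for the 63 members named by rule. Among these, log2 fold changes that turned sign belonged to genes with no call. On the TPM scale these were ZNF207 (0.75), ZNF346 (0.57), ZNF706 (1.00) and ZNF326 (0.0581), and with equal protein-coding sums ZNF706 (0.0147). With each library left out in turn, values ran from -0.998 to 0.15 for ZNF207, from -0.58 to 0.27 for ZNF706, from -1.91 to 0.65 for ZNF326 and from -0.28 to 1.29 for ZNF91. They ran from -0.43 to 0.89 for ZNF598, from -0.15 to 1.74 for ZNF622, from -0.14 to 0.51 for ZNF335 and from -1.90 to 0.10 for ZNF789.

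Depth is not known for any library, so low values such as those of ZNF143 and ZNF428 in RIP carry a counting error that cannot be given.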
